A study of Mus musculus with 6 samples.

Results

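Arginase 1 and the genes that make, control and break down polyamines were followed in activated lung ILC2 with and without an antibody against GITR. The 9 genes Arg1, Ass1, Odc1, Amd1, Srm, Sms, Oaz1, Azin1 and Sat1 were taken by their symbols from the 23183 genes of each table, and all 9 had a row. The libraries came from wild type primary ILC2 (group 2 innate lymphoid cells, lymphocytes without antigen receptors) of the mouse lung. All cultures received interleukins 2, 7 and 33 at 10 ng/ml for 24 h, together with an IgG2b isotype control antibody (3 libraries) or with DTA-1 (3 libraries), an antibody that stimulates GITR, a costimulatory receptor of the TNF receptor family. Whether each library had its own animal or culture is not given in the labels, so the p-values here speak of the spread among 6 samples and that spread may be technical in origin.

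Arginase splits arginine into urea and ornithine. Ornithine decarboxylase turns ornithine into putrescine, and spermidine synthase and spermine synthase then add aminopropyl groups that S-adenosylmethionine decarboxylase supplies. Antizyme binds ornithine decarboxylase and sends it to the proteasome, antizyme inhibitor releases it, and an acetyltransferase opens the way back from spermine and spermidine. Lung ILC2 are known for constitutive expression of arginase 1, which macrophages of the type 2 response also make.

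Values were taken as FPKM (fragments scaled to transcript length in kilobases and to library size), on which levels of different genes can be compared. The libraries held an estimated 18700000 to 20700000 fragments, so that 1 fragment on a transcript of 1 kb was worth 0.0483 to 0.0535 FPKM. Differences are DTA-1 minus isotype on the log2(FPKM + 1) scale, with SE and 95% interval from limma, and adjusted p-values are over all 10501 genes tested. Of these, 4 passed an adjusted p of 0.05, which is 0.0381%, with 3 higher and 1 lower (3 higher and 2 lower after scaling to equal totals or equal upper quartiles).

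The cells carried the markers of ILC2. Il13, a type 2 cytokine and the most abundant marker, was listed at 1980 to 2839 FPKM with the isotype and at 4593 to 5883 FPKM with DTA-1. Gata3, the lineage-defining transcription factor, lay between 118 and 212 FPKM in the 6 libraries, and Il1rl1, the interleukin 33 receptor, at 204 to 309.6 FPKM with the isotype and at 173.6 to 191.5 FPKM with DTA-1. None of the 11 ILC2 markers passed the threshold, and their median log2 difference was -0.22. Without overlap between groups, Il13 lay higher and Il1rl1 and Klrg1 lower, the last (an inhibitory receptor, named after its values were seen) at 79.8 to 114.9 FPKM with the isotype and at 10.5 to 48.1 FPKM with DTA-1. Their part in the results on arginase and polyamine genes was not tested. Of 14 macrophage and monocyte markers, Mrc1, Retnla, Mertk, C1qa, Marco and Siglecf were listed at 0 in every library, and Cd68 was the single one tested, at 2.40 to 4.16 FPKM. Their summed level was 2.54 to 4.43 FPKM with the isotype and 2.52 to 2.85 with DTA-1, far below the level of Arg1 in any library. The lists of mast cell and basophil markers (led by Mcpt8) and of NK cell markers (led by Gzma) stayed under 1 FPKM in sum in each library. The leading genes of the other lists were Pecam1 (19.9 to 43.8 FPKM), Cd3g (7.07 to 10.2), Cd79b (2.93 to 7.10), Epcam (1.09 to 4.34) and Ccr3 (0.18 to 1.90). Pecam1 is on the stroma and endothelium list, whose other genes stayed at or below 0.094 FPKM in every library.

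For 3 of the 9 genes, the row cannot be read alone, because another row of the tables has almost the same coding sequence. The coding sequences of Amd1 and its intronless paralog Amd2 differ at 1 of 1002 bases in GENCODE, at G796C (Amd1 base, position from 1 at the first base of the start codon, Amd2 base). Oaz1 and the processed pseudogene Oaz1-ps differ at 1 of 681 aligned bases, at G125C. Their alignment also held a gap of 1 base in the annotated Oaz1 coding sequence. Whether that gap stems from the ribosomal frameshift in the translation of Oaz1, and so is no difference between the transcripts, was not tested. Ass1 and the processed pseudogene Gm5424 differ at 6 of 1236 aligned bases, among them T399C and T429C. Sequence outside the coding part was not compared. The 61-base stretches around these differences are shown because they hold bases by which reads from the copies can be told apart. They run 5′ to 3′ on the coding strand, with the differing bases in capitals, and come from GENCODE transcripts on GRCm38.
Amd1: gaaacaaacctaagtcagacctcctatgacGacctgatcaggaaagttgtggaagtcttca
Amd2: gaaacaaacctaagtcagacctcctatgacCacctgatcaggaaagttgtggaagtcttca
Oaz1: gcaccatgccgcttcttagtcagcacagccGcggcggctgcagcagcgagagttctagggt
Oaz1-ps: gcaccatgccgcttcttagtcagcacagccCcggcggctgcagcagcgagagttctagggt
Ass1: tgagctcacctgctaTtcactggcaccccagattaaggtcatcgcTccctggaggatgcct
Gm5424: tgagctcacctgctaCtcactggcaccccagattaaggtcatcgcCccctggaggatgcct

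The longest identical stretch in these alignments was 795 bases for Amd1 and Amd2, 477 for Oaz1 and Oaz1-ps, and 398 for Ass1 and Gm5424. For Oaz1 the gap was counted as a break, so the stretch shared by the transcripts may be longer. Copies of other members were found as well. With at least 90% identity over at least 150 coding bases, GENCODE held 13 copies of Odc1, 6 of Sms, 2 of Sat1 and 1 of Srm, and none of Arg1 or Azin1. Of these, Gm15645 for Odc1 (0.78 to 1.30 FPKM) and Gm8234 for Sms (0.59 to 1.29 FPKM) had rows, both far below their parent genes. The coding sequence of Sms is fully contained in Sms-ps, which was not analysed here. By the same limits Amd1 had 8 copies, of which only Amd2 had a row. Among those without a row, Amd-ps3 and Amd-ps4 were 99.9% and 99.5% identical to Amd1 over 1002 aligned bases.

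None of the 8 members that could be tested passed the threshold (limma, against 0.0381% of all genes), and Amd1 was not tested because it reached 1 FPKM in only 2 libraries. At an unadjusted p under 0.05 there was 1 member on each side, Sat1 higher and Arg1 lower, where 6.22% of all genes were higher and 7.73% lower (14.0% together). Sat1 and Arg1 were also the members whose groups did not overlap, where 11.2% of all genes lay higher and 10.5% lower without overlap (21.6% together). The 8 members split evenly into 4 above and 4 below 0, with a median log2 difference of 0.037 beside 0.014 for all genes tested.

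**Figure D1:**
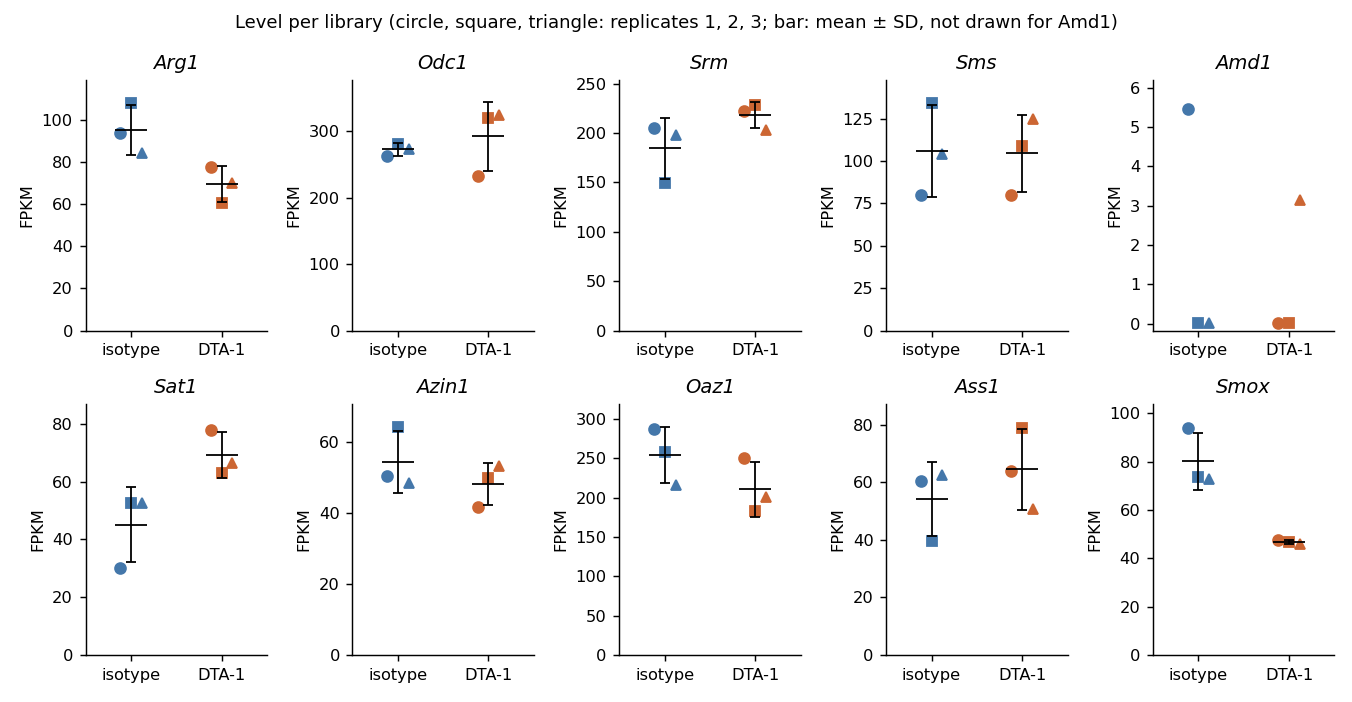
Level in FPKM (y axis, linear, from 0 except for a small margin below 0 for Amd1) of the 9 members and of Smox in the isotype (blue) and DTA-1 (orange) libraries, with circles, squares and triangles for replicates 1, 2 and 3 and bars for the mean ± SD, which is not drawn for Amd1. Arg1 and Smox lay lower and Sat1 higher in every DTA-1 library than in any isotype library, and the other genes overlapped.

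Arg1, the arginase of the cytosol (chromosome 10, 24915221 to 24927484, minus strand, GRCm38), was lower with DTA-1. It measured 93.5, 108 and 84.3 FPKM in isotype replicates 1, 2 and 3 and 77.5, 60.5 and 69.9 FPKM in DTA-1 replicates 1, 2 and 3. Each DTA-1 library lay below each isotype library, with means of 95.2 ± 11.8 and 69.3 ± 8.51 FPKM (SD, n = 3 each), 0.728-fold. The log2 difference was -0.45 ± 0.14 (95% interval -0.77 to -0.13), with an adjusted p of 0.207 in limma over all genes. With library quality weights in limma the difference was -0.47 and the adjusted p 0.0483, the one setting in which Arg1 passed. The mean level of Arg1 over the 6 libraries was above that of 89.8% of the genes tested. Its mitochondrial counterpart Arg2 stayed at or below 0.185 FPKM in every library.

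Ass1 joins citrulline to aspartate, the first of the steps that rebuild arginine (chromosome 2, 31470207 to 31520672, plus strand). It stood at 60.5, 39.4 and 62.5 FPKM with the isotype and at 64.0, 78.7 and 50.8 FPKM with DTA-1. The groups overlapped, and the log2 difference was 0.25 ± 0.22 (95% interval -0.24 to 0.75, limma adjusted p = 0.676), and 0.045 without isotype replicate 2. Gm5424 stood at 76.6, 93.6 and 66.7 FPKM with the isotype and at 58.8, 52.7 and 82.4 FPKM with DTA-1, high where Ass1 was low. The sum of both rows was 137.1, 133.1 and 129.2 FPKM with the isotype and 122.8, 131.4 and 133.2 FPKM with DTA-1. Over the 6 libraries the coefficient of variation was 22.3% for Ass1, 21.3% for Gm5424 and 3.69% for the sum. The log2 difference of the sum was -0.044 ± 0.10 (95% interval -0.28 to 0.19), which turns the direction of the Ass1 row. The summing was chosen after these values were seen, and how reads were shared between such copies is not given in the sources used here.

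Odc1 encodes ornithine decarboxylase, the entry into polyamine synthesis (chromosome 12, 17544794 to 17551505, plus strand). As rows are listed it had the highest mean of the members in both groups, although the Oaz1 row stood above it in replicate 1 of each group and the sum of Oaz1 and Oaz1-ps above it in group means (377 and 386 FPKM). Its mean level was above that of 97.5% of the genes tested. Its isotype libraries were close together at 263, 281 and 273 FPKM, and its DTA-1 libraries spread from 233 FPKM in replicate 1 to 319 and 325 FPKM in replicates 2 and 3. Thus 1 DTA-1 library lay below and 2 lay above all isotype libraries. The log2 difference was 0.086 ± 0.15 (95% interval -0.25 to 0.42, limma adjusted p = 0.853), and 0.24 without DTA-1 replicate 1.

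Amd1 encodes S-adenosylmethionine decarboxylase (chromosome 10, 40287458 to 40302186, minus strand). Its row held 5.47 FPKM in isotype replicate 1 and 3.15 FPKM in DTA-1 replicate 3, and 0.0168 to 0.0173 FPKM in the other 4 libraries. Amd2 (chromosome 10, 35708675 to 35711892, minus strand) meanwhile stood at 50.9, 53.8 and 45.5 FPKM with the isotype and at 53.5, 46.7 and 46.6 FPKM with DTA-1. Between 0.0316% and 9.70% of their summed level was listed under Amd1. The sum was 56.4, 53.8 and 45.5 FPKM with the isotype and 53.5, 46.8 and 49.8 FPKM with DTA-1. Its log2 difference was -0.049 ± 0.12, with a 95% interval of -0.33 to 0.24.

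Srm, the spermidine synthase gene (chromosome 4, 148591503 to 148594993, plus strand), measured 205, 149 and 198 FPKM with the isotype and 222, 228 and 203 FPKM with DTA-1. Isotype replicate 2 stood below all others, and DTA-1 replicate 3 fell among the other isotype libraries. The log2 difference was 0.25 ± 0.14 (95% interval -0.079 to 0.58, limma adjusted p = 0.501), and 0.11 without isotype replicate 2. Sms, the spermine synthase gene (chromosome X, 157443855 to 157492287, minus strand), measured 79.8, 134 and 104 FPKM with the isotype and 80.1, 109 and 125 FPKM with DTA-1. Replicate 1 was the lowest library of both groups for Sms. The log2 difference of Sms was -0.011 ± 0.22 (95% interval -0.52 to 0.50), and it was above 0 without isotype replicate 2 (0.17) and without DTA-1 replicate 1 (0.17).

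Oaz1 encodes antizyme, whose translation needs a ribosomal frameshift that polyamines promote (chromosome 10, 80826656 to 80829290, plus strand). Its row stood at 287, 258 and 216 FPKM with the isotype and at 250, 182 and 200.3 FPKM with DTA-1. DTA-1 replicate 1 lay within the isotype range and the other DTA-1 libraries below it, with a log2 difference of -0.27 ± 0.16 (95% interval -0.63 to 0.093, limma adjusted p = 0.511). Oaz1-ps (chromosome 17, 17345456 to 17346140, minus strand) was listed at 142.9, 38.3 and 187 FPKM with the isotype and at 200.8, 177.5 and 146.4 FPKM with DTA-1. The sum of both rows was 430.3, 296.8 and 403.3 FPKM with the isotype and 450.8, 360.0 and 346.7 FPKM with DTA-1, and the share listed under Oaz1 ran from 50.7% to 87.1%. The log2 difference of the sum was 0.042 ± 0.17 (95% interval -0.35 to 0.43), on the other side of 0 from the Oaz1 row. A sum of FPKM adds values scaled to different transcript lengths, so it describes these rows and is not a count of fragments.

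Azin1 encodes antizyme inhibitor, a relative of ornithine decarboxylase without its activity (chromosome 15, 38487427 to 38519266, minus strand). It measured 50.3, 64.2 and 48.4 FPKM with the isotype and 41.7, 49.8 and 53.2 FPKM with DTA-1. Isotype replicate 2 was highest and DTA-1 replicate 1 lowest, and the rest lay close together. The log2 difference was -0.16 ± 0.15 (95% interval -0.51 to 0.18, limma adjusted p = 0.705), and -0.040 without isotype replicate 2. The antisense gene Gm49077 overlaps the Azin1 locus in GENCODE, and the use of strand in the counting is not given in the sources used here. Antisense genes at the loci of the other members are not reported here.

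**Figure D2:**
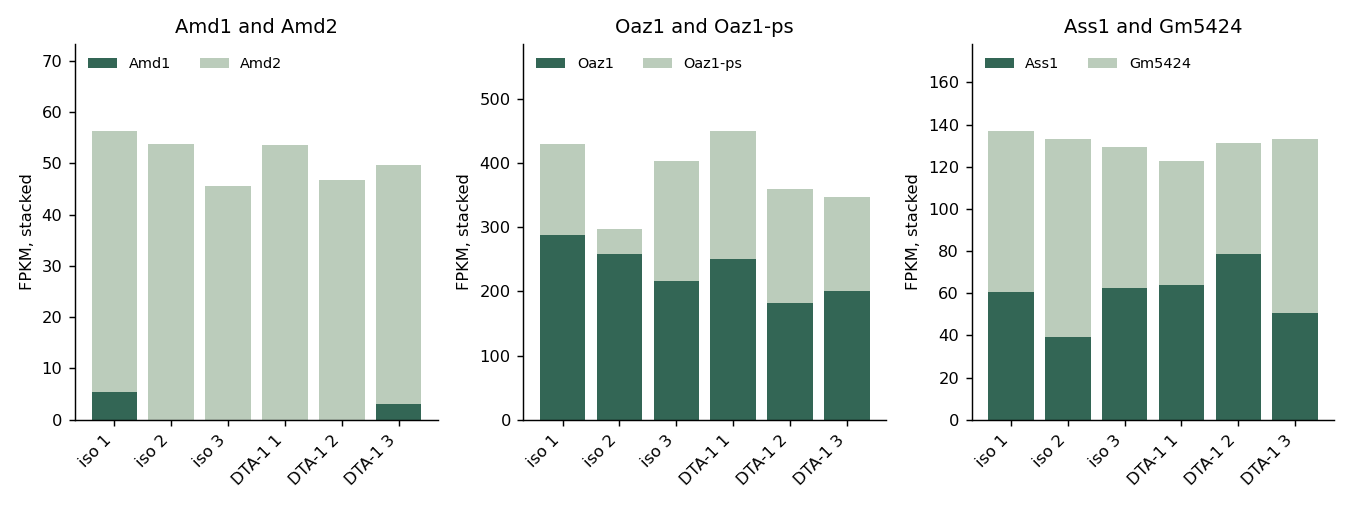
Stacked FPKM (y axis, linear from 0) of Amd1 and Amd2, Oaz1 and Oaz1-ps, and Ass1 and Gm5424 in each of the 6 libraries (x axis), the member in dark and its copy in light green. The total of Ass1 and Gm5424 stayed between 122.8 and 137.1 FPKM while the Ass1 part ran from 29.6% to 59.9%, and nearly all of the Amd pair was listed under Amd2.

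Sat1 encodes the acetyltransferase that marks spermine and spermidine for export or oxidation (chromosome X, 155213132 to 155216449, minus strand). It was higher with DTA-1, at 30.1, 52.7 and 52.5 FPKM in the isotype libraries and at 78.0, 62.9 and 66.5 FPKM in the DTA-1 libraries. The groups did not overlap, with means of 45.1 ± 13.0 and 69.1 ± 7.92 FPKM (SD, n = 3 each), 1.53-fold. The log2 difference was 0.64 ± 0.22 (95% interval 0.14 to 1.14), with an adjusted p of 0.237 in limma over all genes. It was 0.38 without isotype replicate 1, the library with the lowest Sat1.

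Smox, the oxidase that turns spermine directly back into spermidine, is no member but lies beside Sat1 in the breakdown branch (chromosome 2, 131491496 to 131525922, plus strand). It stood at 93.8, 73.7 and 73.0 FPKM with the isotype and at 47.6, 46.8 and 46.0 FPKM with DTA-1. The groups were far apart, and the DTA-1 libraries differed little among themselves, with means of 80.1 ± 11.8 and 46.8 ± 0.823 FPKM (SD, n = 3 each). The log2 difference was -0.75 ± 0.13 (95% interval -1.05 to -0.46), with an adjusted p of 0.0817 in limma over all genes, so that Smox did not pass, and an adjusted p of 0.00914 with library quality weights. With the unadjusted p of 3.4e-04 it had the smallest p of the 38 members and pathway genes tested. The breakdown gene Paox, the acetylpolyamine oxidase, measured 3.08 ± 0.873 and 2.23 ± 0.193 FPKM, with overlap between the groups.

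Proliferation genes were examined in the same libraries. Pcna, the sliding clamp of DNA replication, measured 301 ± 36.5 FPKM with the isotype and 180 ± 6.07 FPKM with DTA-1 (SD, n = 3 each, limma adjusted p = 0.0817). Mki67, a marker of cycling cells, measured 115, 54.8 and 43.3 FPKM with the isotype and 39.6, 27.3 and 30.3 FPKM with DTA-1. None of the 20 genes of the list passed, and 18 lay lower without overlap, where 10.5% of all genes did. The summed level of 20 S phase and mitosis genes was 1351 to 2254 FPKM with the isotype, highest in replicate 1, and 890.0 to 965.2 FPKM with DTA-1. Isotype replicate 1 was thus the library with the most proliferation transcripts, the highest Smox and the lowest Sat1. Without it, the log2 difference was -0.64 for Smox, -0.46 for Arg1 and 0.38 for Sat1. Among marker lists of other cells, the summed level did not overlap between isotype and DTA-1 for lung epithelium (3.89 to 4.65 and 1.47 to 2.22 FPKM, Sftpa1 at 0), granulocytes (1.84 to 1.92 and 0.201 to 0.941 FPKM, with S100a8, S100a9, Elane and Prg2 at 0) and T cells (10.6 to 11.7 and 8.40 to 9.76 FPKM, none at 0 throughout). Most of each of these sums came from 1 gene, Epcam, Ccr3 and Cd3g in that order, and the other genes of these lists overlapped between groups. The part of proliferation genes or of such marker genes in the differences of Arg1, Sat1 and Smox was not tested. In such bulk libraries, fewer cells with a transcript and less of it per cell cannot be told apart.

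**Figure D3:**
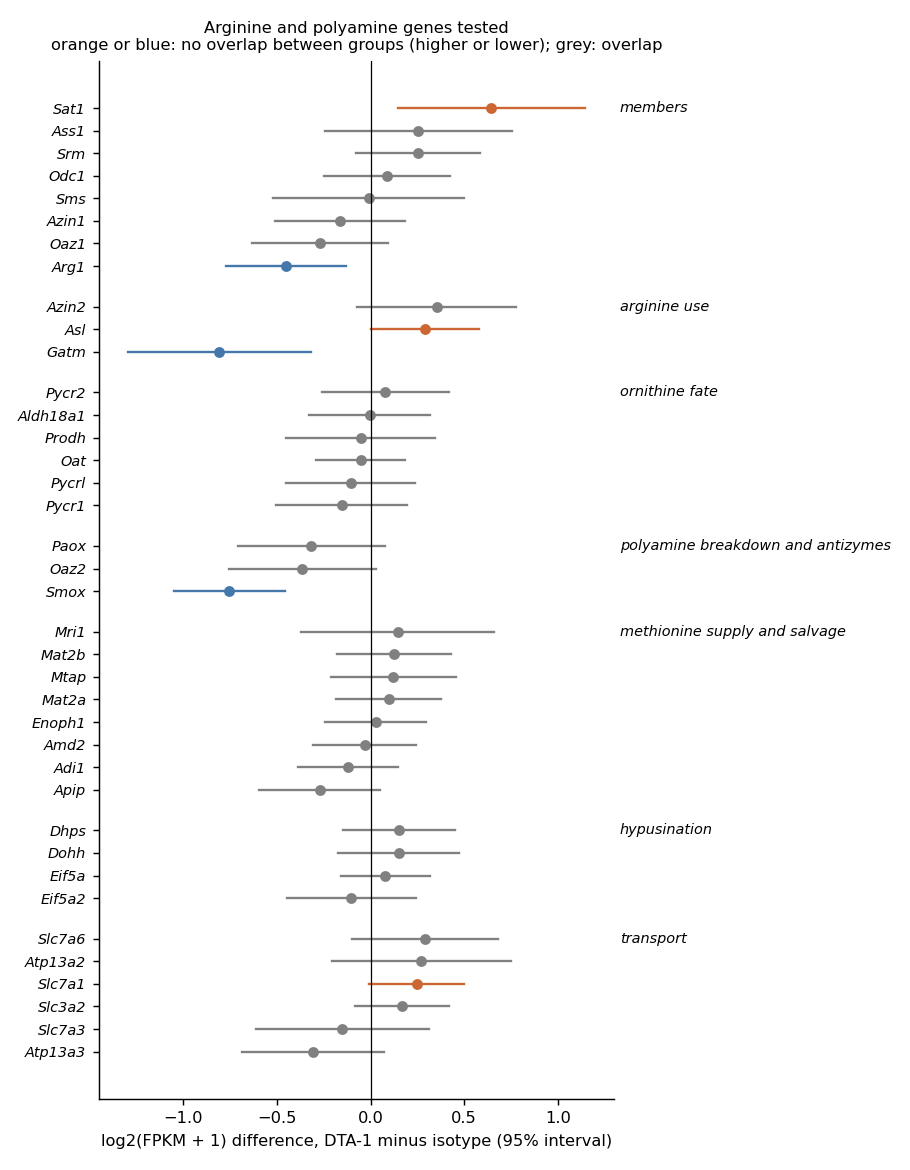
Difference between DTA-1 and isotype on the log2(FPKM + 1) scale (x axis) with its 95% interval for the 8 members and the 30 other arginine and polyamine genes that were tested, sorted within each list. Orange and blue mark genes whose groups did not overlap (Sat1, Asl and Slc7a1 higher, Arg1, Gatm and Smox lower), and the values of Oaz1 and Ass1 change sign when their near-identical copies are added.

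Ratios within a library set each enzyme beside its partner, and the scaling of the library cancels in them. Sat1 stood at 0.114, 0.187 and 0.192 of Odc1 with the isotype and at 0.335, 0.197 and 0.204 with DTA-1. With rows as listed, this was the one ratio of 5 whose groups did not overlap, with an exact permutation p of 0.1, the smallest that 3 against 3 allows (2-sided, adjusted p = 0.5 over the 5 ratios). The highest value came from DTA-1 replicate 1, where Odc1 was lowest and Sat1 highest of the DTA-1 libraries, and the other DTA-1 values lay just above the isotype range.

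The ratio of Odc1 to Oaz1 was 0.916, 1.09 and 1.26 with the isotype and 0.932, 1.75 and 1.62 with DTA-1 (exact permutation p = 0.3, adjusted p = 0.5). Azin1 stood at 0.216 ± 0.037 and 0.235 ± 0.059 of Oaz1 and Sms at 0.605 ± 0.27 and 0.485 ± 0.13 of Srm (SD, n = 3 each, exact permutation p = 0.6 for both, adjusted p = 0.6). Arg1 to Ass1 was 1.87 ± 0.75 and 1.12 ± 0.32 (SD, n = 3 each, exact permutation p = 0.2, adjusted p = 0.5). With rows as listed, all of these overlapped between the groups, and those with Oaz1 or Ass1 carry the uncertainty of these rows. With the near-identical copies added, the log2 difference of the ratio went from 0.356 to 0.043 for Odc1 to Oaz1, from -0.707 to -0.408 for Arg1 to Ass1 and from 0.106 to -0.207 for Azin1 to Oaz1. The summed Arg1 to Ass1 ratio was smaller in magnitude but no longer overlapped between groups (exact permutation p = 0.1, unadjusted, the smallest possible). The other summed ratios did not reach that p, and the summing was chosen after the values were seen.

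**Figure D4:**
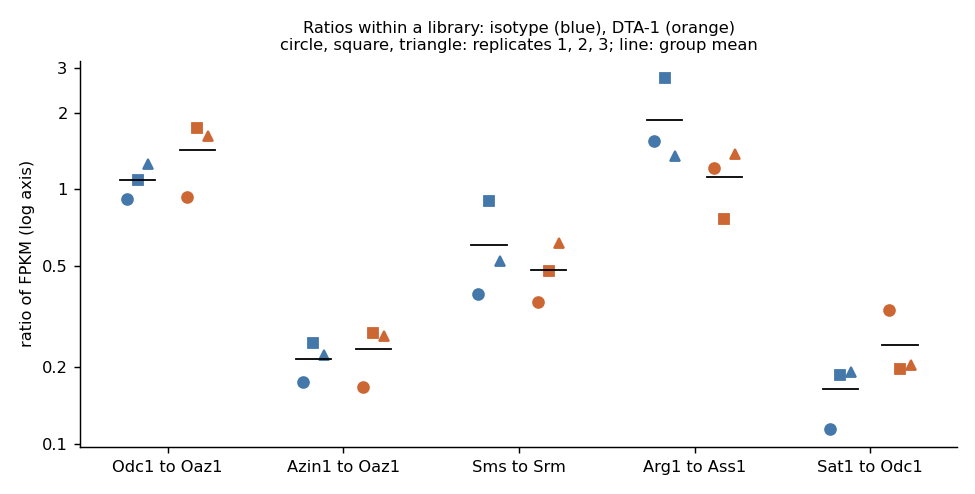
Ratio of FPKM of pairs of genes within each library (y axis, log scale) for the isotype (blue) and DTA-1 (orange) libraries, with circles, squares and triangles for replicates 1, 2 and 3 and a line at the group mean. With rows as listed, only for Sat1 to Odc1 did the groups not overlap, with DTA-1 libraries from 0.197 to 0.335 above isotype libraries from 0.114 to 0.192.

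In the order of levels, Odc1 and Oaz1 led with the isotype, with overlapping ranges, followed by Srm, then Sms and Arg1 with overlapping ranges, then Azin1, Ass1 and Sat1. Neighbours in that last group overlapped in range, and Amd1 came last as listed. With DTA-1, Odc1 led, Srm and Oaz1 followed with overlapping ranges, and Sms lay apart between them and Arg1. Arg1, Sat1, Ass1 and Azin1 then followed, each overlapping the next in range. Both orders are those of the rows as listed. With its copy added, Ass1 stood at 122.8 to 137.1 FPKM, above Arg1 in every library, and Amd1 at 45.5 to 56.4 FPKM. Sat1 was eighth of the 9 with the isotype and sixth with DTA-1.

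Of 45 further genes of arginine and polyamine metabolism in 6 lists by function, 44 had a row and 30 were tested. None passed (limma, 0.0381% of all genes), 1 was higher and 2 were lower at an unadjusted p under 0.05, and 2 were higher and 2 lower without overlap between groups. The median log2 difference was 0.011, beside 0.014 for all genes tested. Over all genes tested, 6.22% were higher and 7.73% lower at that unadjusted p, and 11.2% lay higher and 10.5% lower without overlap. The tested pathway genes without overlap were Smox, Gatm, Asl and Slc7a1.

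Among enzymes that use arginine, Gatm, which starts creatine synthesis from arginine, measured 3.59, 1.64 and 2.03 FPKM with the isotype and 0.699, 1.06 and 0.951 FPKM with DTA-1. Its log2 difference was -0.81 ± 0.21 (95% interval -1.30 to -0.32, limma adjusted p = 0.157), and it ran from -1.27 to -0.32 with pseudocounts of 0.1 and 5. With library quality weights its adjusted p was 0.0308. Asl, which splits argininosuccinate into arginine and fumarate and so follows Ass1, measured 18.6, 18.6 and 22.9 FPKM with the isotype and 26.3, 24.1 and 23.4 FPKM with DTA-1. Each DTA-1 library lay above each isotype library, by a small margin, with a log2 difference of 0.29 ± 0.13 (limma adjusted p = 0.355). Slc7a1, the main cationic amino acid carrier of many cells, was also above the isotype range, at 43.3, 46.2 and 50.3 FPKM against 56.1, 57.2 and 52.8 FPKM (log2 difference 0.25 ± 0.11, limma adjusted p = 0.373).

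The most abundant genes of the remaining lists differed little between groups. Eif5a, the translation factor that spermidine modifies to its hypusine form, measured 1069 ± 63.9 FPKM with the isotype and 1128 ± 41.8 FPKM with DTA-1, with a log2 difference of 0.078 ± 0.10 (95% interval -0.16 to 0.32). Oat, which links ornithine to proline and glutamate, measured 61.6 ± 3.48 and 59.3 ± 0.166 FPKM (-0.054 ± 0.10, interval -0.29 to 0.18). Mat2a, which makes S-adenosylmethionine, measured 112.4 ± 14.0 and 119.7 ± 5.45 FPKM (0.096 ± 0.12, interval -0.18 to 0.38). Slc3a2, the heavy chain of several amino acid carriers, measured 100.4 ± 6.16 and 112.9 ± 7.13 FPKM (0.17 ± 0.11, interval -0.084 to 0.42). The values in these sentences are means ± SD of 3 libraries, and the bracketed differences are log2 with SE.

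RefSeq promoter windows on GRCm38.p6 were at hand for 6 of the 9 members, and for Smox. They were searched on both strands, over 250 bases before and 50 after the start, for CACGTG (E-box), TGANTCA (AP-1), TGACGTCA (cAMP response element), TTCNNNGAA (STAT factors), TTC and GAA with 4 bases between them (STAT6) and GGGA and TTTCC with 1 base between them (NF-kB). No motif contains another. Matches were found in 2 windows, both to the E-box, which 7.15% of 32851 windows hold. They lay at position -36 from the RefSeq start of Ass1, and at -196 from the more distal of the 2 RefSeq starts of Sms. The windows of Sat1, Smox, Odc1, Oaz1 and Amd1 held no match to any of these motifs. The other motifs are uncommon in all windows, at 0.41% for NF-kB, 1.79% for the cAMP response element, 6.95% for STAT6, 7.81% for AP-1 and 8.3% for STAT factors. No match in so few windows therefore says little about control by these factors. The stretches of 120 bases are shown for the genes with a match and for Sat1 and Smox, the breakdown genes without overlap between groups. They run 5′ to 3′ on the strand of the gene, with the match in capitals, and those of Ass1, Sat1 and Smox end at the base before the RefSeq start. For Ass1 and Smox that start lies inside the GENCODE gene, whose first base is 31470207 and 131491496. The Ass1 match and the whole Smox stretch thus lie within the GENCODE gene.
Ass1, chr2:31470150-31470269, plus strand: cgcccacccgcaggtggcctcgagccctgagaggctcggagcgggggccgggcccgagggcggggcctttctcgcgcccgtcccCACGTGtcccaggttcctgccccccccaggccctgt
Sms, chrX:157492394-157492513, minus strand: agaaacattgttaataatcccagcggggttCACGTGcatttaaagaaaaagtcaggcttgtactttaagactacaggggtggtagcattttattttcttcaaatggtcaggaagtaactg
Sat1, chrX:155216450-155216569, minus strand: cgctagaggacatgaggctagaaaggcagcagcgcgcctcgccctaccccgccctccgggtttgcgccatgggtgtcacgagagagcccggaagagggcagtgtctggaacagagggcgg
Smox, chr2:131491742-131491861, plus strand: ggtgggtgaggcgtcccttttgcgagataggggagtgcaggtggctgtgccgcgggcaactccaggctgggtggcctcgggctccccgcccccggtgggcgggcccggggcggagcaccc

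By likeness of profile over the 6 libraries, measured as the root mean square difference of log2(FPKM + 1) values centred on each gene's mean, the nearest of 8129 genes with a mean of at least 5 FPKM were Brms1l (0.0711), Selt (0.0720) and Fkbp5 (0.0820) for Arg1. For Odc1 they were Dph3 (0.0429), Mcu (0.0548) and Frrs1 (0.0623). These values are a description over 6 libraries.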

How the data were processed

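RNA was measured in 6 libraries, 3 per group. Titles gave the groups and replicate numbers, since the treatment tags add running numbers to the antibody names in replicates 2 and 3. The submitters' processing notes name TopHat and the build mm10. The deposited tables give 1 value per gene symbol without a unit. The values were taken as FPKM computed by the authors, because low values times transcript length tended to fall near whole multiples of 1 step, from which depth was estimated. The fit was partial. The mean cosine of their position between multiples was 0.517 to 0.574, where 1 would place every value on a multiple. The quantification program, annotation and use of strand are not given in the sources, and because the values are not counts, no count model was run.

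The 10501 genes that reached 1 FPKM in 3 or more libraries entered limma 3.58.1 (R 4.3.3) as log2(FPKM + 1), with group as the single term, trend and robust moderation, 2-sided tests and Benjamini-Hochberg adjustment over all genes. This scale understates changes of low genes. The procedure was tested on simulated data with known changes. Positions and coding sequences came from GENCODE M21 (GRCm38), and copies were found with blastn 2.17.0. The members and lists were chosen with earlier results of these data known. Named pathway genes are those past the threshold, those without overlap between groups, and the most abundant of each list. Arg2, Paox and Amd2 were named outside this rule. Genes named among other cell types are the most abundant of each list. Alternatives covered the pseudocount, filter, scaling, moderation, library weights, replicate block and leaving out libraries.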

Additional observations from a re-analysis of the deposited data

How the results depend on the processing

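No alternative gave Odc1, Srm, Sms, Sat1, Azin1, Oaz1 or Ass1 an adjusted p under 0.05. Under library quality weights, 161 genes were higher and 314 lower in limma, among them 1 member, Arg1 (log2 difference -0.47, adjusted p = 0.0483, with a range of 0.0483 to 0.588 over its 16 alternatives), and 2 pathway genes, Smox (-0.70, adjusted p = 0.00914, range 0.00914 to 0.283) and Gatm (-0.67, adjusted p = 0.0308, range 0.0308 to 0.395 over 15 alternatives). The sign of Sms changed to 0.10 under these weights. The cause was not tested. Arg1 kept its direction in all alternatives, from -0.54 to -0.36, Smox from -0.82 to -0.64 and Sat1 from 0.38 to 0.78. Without a filter 1 gene was higher, and with equal totals or upper quartiles 2 genes were lower. Leaving out 1 library gave 0 to 3 higher and 0 or 1 lower genes, with 0 members and 0 pathway genes called, and Sms from -0.20 to 0.17. The ratio of Azin1 to Oaz1 ran from -0.036 to 0.33 (log2 difference) and that of Sms to Srm from -0.54 to 0.066. Summing the near-identical copies, chosen after seeing the data, gave 0.042 for Oaz1, -0.044 for Ass1 and -0.21, 0.043 and -0.41 for the ratios of Azin1 to Oaz1, Odc1 to Oaz1 and Arg1 to Ass1.

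With the replicate number as a block, 59 genes were higher and 126 lower in limma, with 1 pathway gene called, Smox (-0.75, adjusted p = 0.0447), and no member. Same-numbered libraries did not deviate together throughout, with correlations of 0.393, -0.101 and -0.129 for replicates 1, 2 and 3, so the numbers were not taken as pairs. Across numbers, the correlation was 0.485 for isotype replicate 2 with DTA-1 replicate 3 and 0.385 for isotype replicate 3 with DTA-1 replicate 2. The remaining combinations ran from -0.42 to -0.141. Whether libraries were paired under other numbers was not tested. Over 3 pairs the ratios could not reach a p below 0.25. Count models and filters on counts were not run. With 3 libraries per group, differences about as large as those of Odc1 or Srm could not be told from 0.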

Other observations

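Of the arginine and polyamine genes with a row, 14 lay below the filter and were not tested. They include 3 genes at 0 in every library. Of the 14, Nos2 and Slc7a2 lay higher and Slc7a7 and Nos1 lower with DTA-1 without overlap between groups. Of all 12682 genes not tested, 2.0% lay higher and 3.55% lower without overlap. Of the 6326 among them that stood above 0 in a library, 4.02% lay higher and 7.11% lower. Nos2, the inducible nitric oxide synthase that uses the same substrate as arginase, had 0.0869, 0.0257 and 0.194 FPKM with the isotype, against 4.41, 0.365 and 0.434 FPKM with DTA-1 (replicates 1, 2 and 3). Every DTA-1 library lay above every isotype library, and DTA-1 replicate 1 stood far above the others. Slc7a2, a cationic amino acid carrier, was listed at 0.0996, 0.321 and 0.385 FPKM with the isotype and at 1.46, 0.609 and 0.714 FPKM with DTA-1, again without overlap and with DTA-1 replicate 1 highest. Slc7a7, the light chain of a cationic amino acid exporter, was at 0.296 to 0.431 FPKM with the isotype and at 0.116 to 0.209 FPKM with DTA-1. Nos1, the neuronal nitric oxide synthase, was at 0.0435 to 0.0559 FPKM and at 0.0327 to 0.0374 FPKM. These 4 genes were singled out after their values were seen.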
